A study of Homo sapiens with 12 samples.

Results

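The aldo-keto reductase genes AKR1A1, AKR1B1, AKR1B10, AKR1C1, AKR1C2 and AKR1C3 were followed across 2 human anaplastic thyroid carcinoma cell lines given an ERK inhibitor or its vehicle. They were chosen by symbol with earlier results of these data known, as were the gene lists used below. Counts of called genes are therefore set beside the shares of all genes as a description only. All 6 members were found among the 58735 genes of the deposited tables, and all 6 were among the 16218 genes that passed the filter on low counts. Polyadenylated RNA was sequenced from 12 libraries in 4 groups of 3. KHM-5M, which carries BRAF V600E, an activating change in the kinase BRAF, was exposed for 24 hours to 1 µM of GDC-0994, the ERK kinase inhibitor ravoxertinib, or to DMSO, its vehicle. TTA-1, labelled BRAF wild type, was exposed to the same agents for the same time. KHM-5M was grown in RPMI-1640 and TTA-1 in DMEM, so genotype, cell of origin and medium cannot be told apart in any difference between the lines, and each genotype is represented by 1 line. The labels number the replicates but do not say whether they were separate cultures, so p-values measure the spread between these libraries, which may be technical.

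Aldo-keto reductases use NADPH to turn aldehydes and ketones into alcohols. AKR1A1 is a widely expressed aldehyde reductase, and AKR1B1, or aldose reductase, takes glucose to sorbitol in the polyol pathway. AKR1B10 reduces retinal and reactive aldehydes and is known from the intestine and from tumours. The AKR1C enzymes act on steroids and prostaglandins: AKR1C1 inactivates progesterone, AKR1C2 inactivates dihydrotestosterone, and AKR1C3 makes testosterone and prostaglandin F. AKR1B10 and the AKR1C genes are known targets of NRF2, the transcription factor of the antioxidant response, which acts through the antioxidant response element.

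The members lie at 3 places of GRCh38. AKR1A1 (ENSG00000117448) is on chromosome 1 at 45550543 to 45570049. AKR1B1 (ENSG00000085662), at 134442350 to 134459284 on the minus strand, and AKR1B10 (ENSG00000198074), at 134527592 to 134541408 on the plus strand, are neighbours on chromosome 7. On chromosome 10, AKR1C1 (ENSG00000187134) spans 4963253 to 4983283 on the plus strand, AKR1C2 (ENSG00000151632) spans 4987400 to 5018031 on the minus strand, and AKR1C3 (ENSG00000196139) spans 5035354 to 5107686 on the plus strand.

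Because reads of near-identical genes can be given to the wrong one, the coding sequences of GENCODE 29 transcripts were compared. AKR1C1 and AKR1C2 differed at 19 of 969 coding positions, an identity of 98.0%. AKR1C3 was 91.8% identical to AKR1C1 and 91.2% to AKR1C2, and AKR1B1 and AKR1B10 were 76.1% identical. AKR1A1 was 50.5% to 58.0% identical to the other members. The stretch of 60 bases in exon 2 of 9 that separates AKR1C1 and AKR1C2 best is printed here for the 3 AKR1C genes, at coding positions 103 to 162 counted from the start codon. It lies on chromosome 10 at 4965932 to 4965991 in AKR1C1, 5001604 to 5001663 in AKR1C2 and 5096428 to 5096487 in AKR1C3, and capitals mark positions where the 3 genes are not all alike.
AKR1C1: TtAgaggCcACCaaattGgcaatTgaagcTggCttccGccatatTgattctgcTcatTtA
AKR1C2: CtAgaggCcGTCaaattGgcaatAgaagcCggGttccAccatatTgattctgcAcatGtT
AKR1C3: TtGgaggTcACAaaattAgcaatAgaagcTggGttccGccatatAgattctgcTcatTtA
AKR1C2 differed from AKR1C1 at 10 of these 60 positions and AKR1C3 at 7. Elsewhere AKR1C1 and AKR1C2 run for long stretches without a difference. Of all 50-base stretches of the coding sequence, 45.7% in AKR1C1 and 42.9% in AKR1C2 occurred in no transcript of another annotated gene. With 150 bases these shares were 95.4% and 92.7%. In AKR1C3 they were 77.0% and 97.3%, in AKR1B10 71.5% and 100%, in AKR1B1 92.8% and 100%, and in AKR1A1 every stretch of 50 bases was unique. The stretches of AKR1B10 that were not unique occurred in AKR1B15 and AKR1B10P1. The annotated exons cover 8765 bases in AKR1C1 and 6461 in AKR1C2, and stretches outside the coding sequence were not searched. The read length is not given in the sources used here, so the counts of AKR1C1 and AKR1C2 are uncertain as far as their split goes, and their fold changes are also given for their sum.

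**Figure D1:**
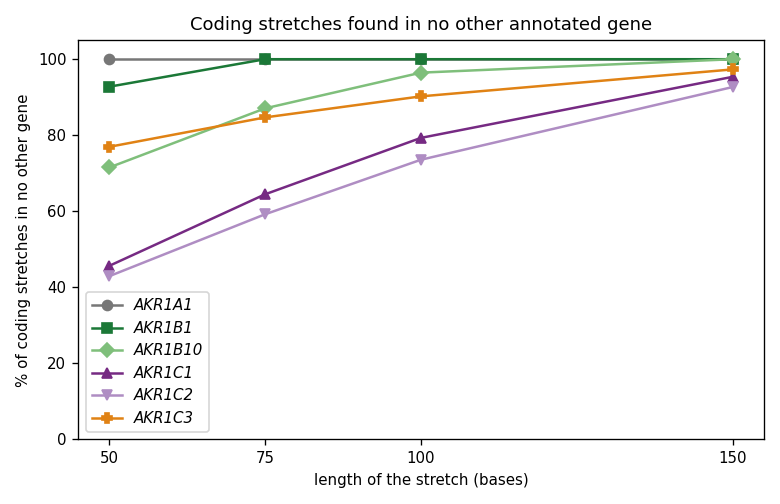
Share of the coding stretches of each aldo-keto reductase gene that occur in no other annotated gene (vertical axis, percent) against the length of the stretch (horizontal axis, bases). AKR1C1 and AKR1C2 lie lowest at every length, at 45.7% and 42.9% with 50 bases and 95.4% and 92.7% with 150 bases.

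Sequence around RefSeq start sites of AKR1C1 and AKR1C2 was nearly identical as well. RefSeq windows of 300 bases, from 250 before to 50 after an annotated start, were found on GRCh38.p14 for 5 of the 6 members. AKR1B10 had no window and was not searched. The windows of AKR1C1 (chr10:4963165-4963464, plus strand) and AKR1C2 (chr10:5003808-5004107, minus strand) are shown because AKR1C2 rose and AKR1C1 was not called in TTA-1. The windows of AKR1C2 and AKR1C3 lie inside the spans given above, at RefSeq starts downstream of the outermost start of the gene. Capitals mark mismatched bases and the bases of the gap where the windows overlap; the overhanging ends are in lower case.
AKR1C1: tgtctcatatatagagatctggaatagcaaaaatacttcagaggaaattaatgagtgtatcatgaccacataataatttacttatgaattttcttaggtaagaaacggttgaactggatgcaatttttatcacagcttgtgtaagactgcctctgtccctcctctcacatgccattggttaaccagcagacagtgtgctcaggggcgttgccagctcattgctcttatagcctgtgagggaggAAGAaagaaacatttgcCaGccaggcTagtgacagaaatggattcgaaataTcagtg
AKR1C2: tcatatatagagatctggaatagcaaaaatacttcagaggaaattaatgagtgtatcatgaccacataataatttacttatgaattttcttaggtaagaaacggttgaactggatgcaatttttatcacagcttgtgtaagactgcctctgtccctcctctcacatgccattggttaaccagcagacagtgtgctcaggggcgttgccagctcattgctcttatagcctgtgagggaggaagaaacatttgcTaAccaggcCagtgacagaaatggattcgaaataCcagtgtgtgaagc
Where the windows overlap they shared 288 of 296 aligned positions (97.3%), with 4 mismatches and 1 gap of 4 bases, all in the last part of the window. Aligned end to end, with overhanging ends counted as gaps, the AKR1C1 window was 93.5% identical to that of AKR1C2, and 72.8% and 71.0% identical to the windows of 2 AKR1C3 start sites. The core of the antioxidant response element, TGACNNNGC, searched on both strands, was found in none of the 5 members' windows and in 13.3% of the 35116 RefSeq windows. TGANTCA, the core of the AP-1 site, was also in none of them, against 7.71% of all windows. CCAAT was in the windows of AKR1B1, AKR1C1, AKR1C2 and AKR1C3 and in 34.6% of all windows. These searches say only whether the letters occur in these windows.

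The 12 libraries held 14952970 to 18389915 counts. GC content moved with the ratio of a library to the others of its group, with correlations across 10966 genes from -0.69 to 0.72 in TTA-1 DMSO and from -0.55 to 0.59 in KHM-5M GDC-0994. The mitochondrial genome gave 4.04 ± 0.239% of all counts in KHM-5M GDC-0994 and 3.09 ± 0.215% in KHM-5M DMSO, and 4.49 ± 0.425% in TTA-1 GDC-0994 and 4.33 ± 0.183% in TTA-1 DMSO (SD, n = 3 each). The thyroid follicular markers TG, TSHR and SLC5A5 averaged below 1 CPM (counts scaled to a common library size) in each of the 4 groups. PAX8, a thyroid transcription factor, was at 120.2 CPM in KHM-5M GDC-0994, 210.2 in KHM-5M DMSO, 3.65 in TTA-1 GDC-0994 and 3.59 in TTA-1 DMSO. Of 6 epithelial markers, 0 in KHM-5M GDC-0994 and 1 in each other group averaged below 1 CPM, with KRT8 at 1398 to 2333 CPM over the group means, CDH1 at 0.0191 CPM in KHM-5M DMSO and KRT19 at 0.337 CPM in TTA-1 GDC-0994 and 0.171 CPM in TTA-1 DMSO. All 4 mesenchymal markers averaged above 1 CPM in each group, with VIM at 1059 to 2041 CPM, but FN1 was at 5506 CPM in KHM-5M GDC-0994 and 3904 CPM in KHM-5M DMSO, against 2.42 CPM in TTA-1 GDC-0994 and 1.73 CPM in TTA-1 DMSO. The 5 blood markers summed to at most 3.04 CPM and the 3 endothelial markers to at most 3.54 CPM in any library.

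All 6 members were lower in KHM-5M than in TTA-1, under DMSO and under GDC-0994. The summed level of the 6 was 104 ± 2.99 FPKM (fragments scaled by gene length and library size) in KHM-5M DMSO and 758 ± 16.8 FPKM in TTA-1 DMSO (SD, n = 3 each). With GDC-0994 it was 153 ± 9.42 FPKM in KHM-5M and 939 ± 25.6 FPKM in TTA-1. The make-up differed too: AKR1B1 held 78.1 ± 0.564% of the summed FPKM in KHM-5M DMSO and 45.1 ± 1.56% in TTA-1 DMSO, whereas the 3 AKR1C genes each held at most 3.22% in any KHM-5M DMSO library and at least 13.7% in every TTA-1 DMSO library. In KHM-5M GDC-0994 the share of AKR1C3 was 9.98 ± 0.524%, against 3.06 ± 0.235% in KHM-5M DMSO. The FPKM of the authors divide by the length of all annotated exons, which ranges from 1744 bases in AKR1B10 to 8765 in AKR1C1, while the coding sequences are of 948 to 975 bases, so the order of the members rests on that length. In bulk RNA, fewer expressing cells and less RNA per cell cannot be told apart.

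**Figure D2:**
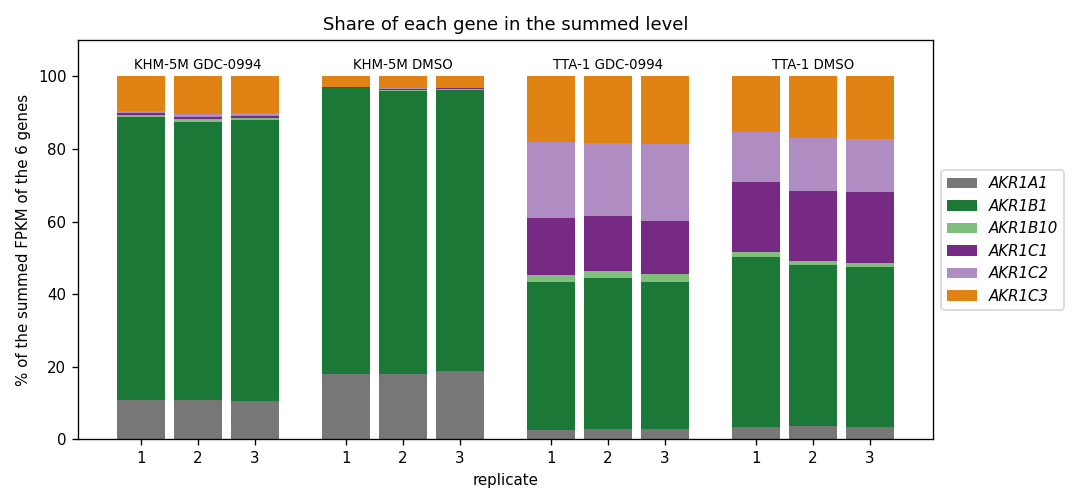
Stacked bars give the share of each gene in the summed FPKM of the 6 members (vertical axis, percent) for each library, with the replicate number on the horizontal axis and the 4 groups side by side. AKR1B1 fills most of each KHM-5M bar, and the AKR1C genes fill much of each TTA-1 bar.

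AKR1C1 showed how far apart the lines were. It had 57, 55 and 43 counts in KHM-5M DMSO, or 3.21, 3.17 and 2.46 CPM, against 20785, 19866 and 20888 counts in TTA-1 DMSO, or 1353, 1307 and 1318 CPM. The difference of KHM-5M from TTA-1 in DMSO was -8.81 ± 0.10 on the log2 scale (± SE, adjusted p = 6.50e-19, edgeR quasi-likelihood test with Benjamini-Hochberg adjustment over 16218 genes, as for every adjusted p of the lines and treatments unless another tool is named). For AKR1C2 it was -10.60 ± 0.17, for AKR1B10 -5.89 ± 0.22, for AKR1C3 -5.32 ± 0.08, for AKR1B1 -2.10 ± 0.07 and for AKR1A1 -0.48 ± 0.08, with adjusted p at most 2.65e-05. For the summed counts of AKR1C1 and AKR1C2 it was -9.23 ± 0.09. All 6 were called lower, as were 36.8% of all genes tested, while 39.6% were called higher and 76.5% in all, and the median over the 6 was -5.60 against 0.03 over all genes. Under GDC-0994 the differences of KHM-5M from TTA-1 were smaller for 5 members and larger for AKR1A1: -7.60 for AKR1C2, -7.33 for AKR1C1, -4.58 for AKR1B10, -3.55 for AKR1C3, -1.76 for AKR1B1 and -0.71 for AKR1A1, with -7.46 for AKR1C1 and AKR1C2 summed. All 6 were again called lower, with 39.1% of all genes lower, 41.0% higher and 80.1% called in all (adjusted p at most 2.27e-07).

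**Figure D3:**
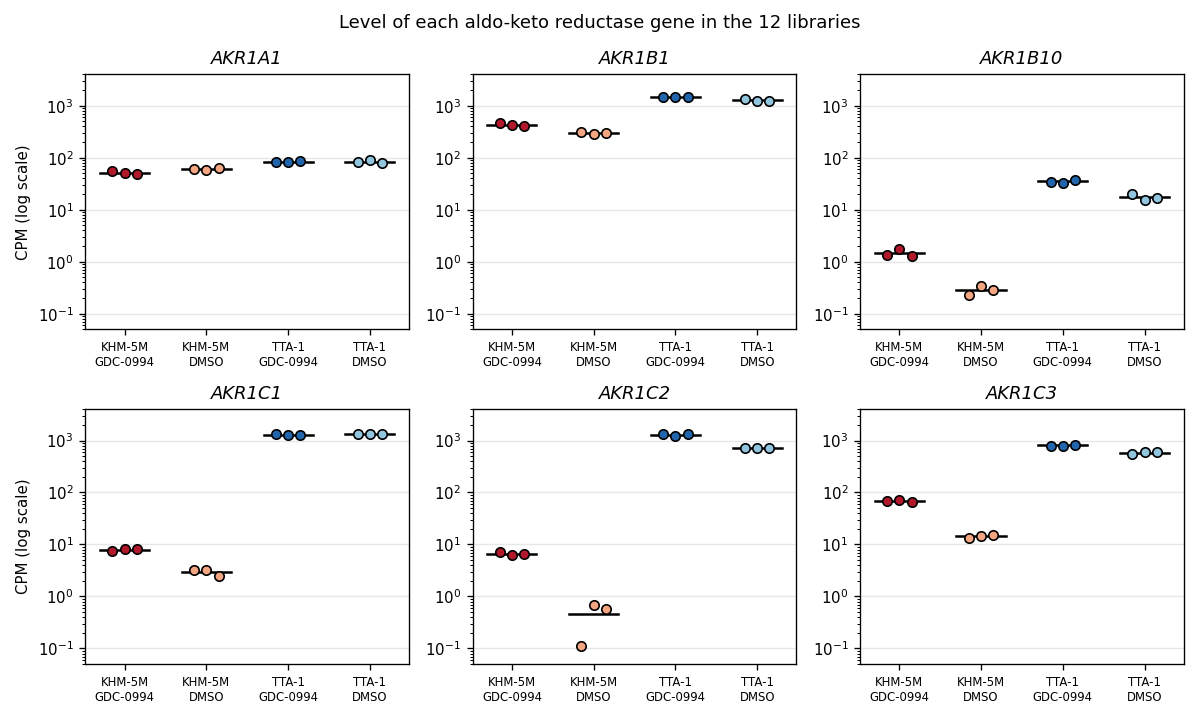
Level of each aldo-keto reductase gene in CPM (vertical axis, log scale) in each library, with 1 panel per gene and the 4 groups on the horizontal axis; points are libraries and lines are means of 3. In the AKR1C panels KHM-5M lies below TTA-1 in every library, and in KHM-5M 5 of the 6 genes are higher with GDC-0994.

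In order of level, TTA-1 GDC-0994 came first for 5 members, then TTA-1 DMSO, KHM-5M GDC-0994 and KHM-5M DMSO for AKR1B1, AKR1B10, AKR1C2 and AKR1C3. For AKR1C1 the 2 TTA-1 groups came in the other order and were not called different. For AKR1A1 the 2 TTA-1 groups, also not called different, were followed by KHM-5M DMSO and then KHM-5M GDC-0994. The TTA-1 groups of AKR1B1 were not called different either. KHM-5M GDC-0994 and TTA-1 DMSO, neighbours in this order for 4 genes, were not compared by a test.

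In KHM-5M, GDC-0994 was set against DMSO to ask what ERK inhibition does to these genes in a line with BRAF V600E. The 3 AKR1C genes, AKR1B10 and AKR1B1 rose, and AKR1A1 fell by a small amount. All 6 were called, against 49.8% of all genes tested: 5 were higher, against 24.6% of all genes, and 1 was lower, against 25.1%. The median log2 fold change was 1.83 over the 6 members and 0.02 over all genes.

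AKR1C2, the reductase that inactivates dihydrotestosterone, had 138, 112 and 107 counts with GDC-0994 (7.28, 6.20 and 6.57 CPM), against 2, 12 and 10 counts with DMSO (0.113, 0.692 and 0.573 CPM). The groups did not overlap, and DMSO replicate 1 lay below the other DMSO libraries. The log2 fold change was 3.85 ± 0.23, or 14.4-fold (adjusted p = 5.69e-10), and it ranged from 3.42 to 4.29 when 1 library was left out. AKR1C3, which makes testosterone and prostaglandin F, had 68.8, 70.9 and 66.2 CPM with GDC-0994, against 13.5, 14.8 and 15.4 CPM with DMSO. Every treated library was above every control library, with a log2 fold change of 2.24 ± 0.07, or 4.71-fold (adjusted p = 4.17e-13). AKR1C1, which inactivates progesterone, had 7.38, 8.36 and 8.22 CPM with GDC-0994, against 3.21, 3.17 and 2.46 CPM with DMSO, a rise of 1.43 ± 0.11 (2.70-fold, adjusted p = 1.25e-08). With the counts of AKR1C1 and AKR1C2 summed, the rise was 2.10 ± 0.09 (adjusted p = 8.22e-12).

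AKR1B10, the retinal reductase, had 25, 32 and 21 counts with GDC-0994 (1.32, 1.77 and 1.29 CPM), against 4, 6 and 5 counts with DMSO (0.226, 0.346 and 0.287 CPM). These low counts did not overlap, and the rise was 2.33 ± 0.31 on the log2 scale (5.01-fold, adjusted p = 1.05e-05). AKR1B1, aldose reductase, was the most abundant member in KHM-5M, with 459, 420.1 and 412 CPM with GDC-0994, against 307, 290.7 and 304 CPM with DMSO, and it rose by 0.52 ± 0.06 (1.43-fold, adjusted p = 3.48e-06). AKR1A1, the general aldehyde reductase, had 55.3, 50.2 and 48.5 CPM with GDC-0994, against 60.2, 57.3 and 63.0 CPM with DMSO. It fell by 0.23 ± 0.08 (adjusted p = 0.0212). That call was lost when KHM-5M GDC-0994 replicate 2 (adjusted p = 0.0769) or 3 (0.151) was left out, or KHM-5M DMSO replicate 1 (0.0980) or 3 (0.136), or TTA-1 GDC-0994 replicate 1 (0.0520), 2 (0.0553) or 3 (0.0632). It was also lost without a filter (0.0972), with upper quartile scaling (0.0993) and after correction for gene length and GC content in each library, where the value was 0.01 (0.890). After that correction the median over all genes was 0.10, against 0.02 in the main fit. The adjusted p of AKR1A1 lay between 0.00908 and 0.890 in these and the other alternatives.

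The same comparison in TTA-1, labelled BRAF wild type, gave smaller log2 fold changes on a higher level. On the linear scale the order was the other way for the sum of the 6 members. That sum went from 758 to 939 FPKM in TTA-1 and from 104 to 153 FPKM in KHM-5M. AKR1B10, AKR1C2 and AKR1C3 rose, and AKR1A1, AKR1B1 and AKR1C1 were not called. The 3 calls, all higher, compare with 3.43% of all genes called and 1.18% called higher. That background moved with single libraries: the 556 genes called became 2620 without TTA-1 DMSO replicate 2, 349 without replicate 1 and 311 without replicate 3 of that group, and 311 without TTA-1 GDC-0994 replicate 2 and 259 without replicate 3. The same number of members, 3, was called each time. The median log2 fold change was 0.32 over the 6 members and 0.01 over all genes.

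AKR1C2 had 1307, 1233 and 1358 CPM with GDC-0994, against 706, 725 and 729.7 CPM with DMSO. The groups lay well apart, and the rise was 0.85 ± 0.09 on the log2 scale (1.80-fold, adjusted p = 4.04e-05). AKR1B10 had 34.2, 33.1 and 37.9 CPM with GDC-0994, against 20.1, 15.4 and 16.6 CPM with DMSO, and rose by 1.01 ± 0.12 (2.02-fold, adjusted p = 1.12e-04). AKR1C3 had 797, 784 and 829 CPM with GDC-0994, against 553, 592 and 602 CPM with DMSO, and rose by 0.46 ± 0.06 (1.38-fold, adjusted p = 4.58e-04).

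AKR1C1, in contrast, had 1341, 1259.7 and 1253 CPM with GDC-0994, against 1353, 1307 and 1318 CPM with DMSO. These groups overlapped, the log2 fold change was -0.05 ± 0.07 (adjusted p = 0.784), and its 95% interval ran from -0.20 to 0.11. AKR1A1 had 82.5, 84.3 and 85.02 CPM with GDC-0994, against 82.6, 88.7 and 79.7 CPM with DMSO, with a 95% interval from -0.17 to 0.18. AKR1B1 had 1442, 1442 and 1473 CPM with GDC-0994, against 1371, 1255 and 1244 CPM with DMSO, a difference of 0.17 ± 0.06 that was not called (adjusted p = 0.159). AKR1B1 was called after the correction for length and GC content (0.25 ± 0.05, adjusted p = 0.00304, 0.00304 to 0.469 in the alternatives).

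The balance within the near-identical pair AKR1C1 and AKR1C2 was compared as well. In TTA-1, AKR1C2 took 49.35%, 49.5% and 52.0% of the summed AKR1C1 and AKR1C2 counts with GDC-0994, against 34.3%, 35.7% and 35.6% with DMSO. In KHM-5M it took 49.6%, 42.6% and 44.4% with GDC-0994, against 3.39%, 17.9% and 18.9% with DMSO, on far fewer counts. The difference in mean share was 15.1 percentage points in TTA-1 and 32.2 in KHM-5M, and every treated library was above every control library of its line. In each line the two-sided exact permutation test gave p = 0.1 (0.1 after adjustment over the 2 tests), the smallest that 3 against 3 libraries allow. This share was chosen after the values were seen. In TTA-1 the sum of both genes rose by 0.34 ± 0.06 (adjusted p = 0.00366), and with AKR1C3 added by 0.36 ± 0.06 (adjusted p = 0.00208), values of the sum and not of AKR1C1. The part of misassigned reads in the balance was not tested.

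**Figure D4:**
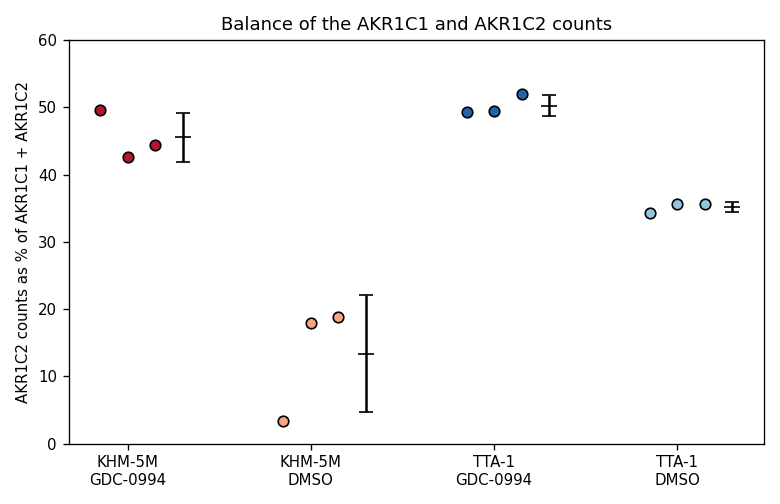
AKR1C2 counts as a percentage of the AKR1C1 and AKR1C2 counts (vertical axis) in each library of the 4 groups; points are libraries, and the bars beside them give the mean and SD of 3. The GDC-0994 libraries lie between 42.6% and 52.0% in both lines, above the DMSO libraries of their line.

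The difference between the lines was tested directly, as the log2 fold change in KHM-5M minus that in TTA-1. It was called for 5 of 6 members, all higher, against 27.9% of all genes called and 12.3% called higher, and was not called for AKR1A1. The difference was 3.0 ± 0.27 for AKR1C2 (adjusted p = 2.03e-07), 1.77 ± 0.10 for AKR1C3 (adjusted p = 6.70e-10) and 1.48 ± 0.13 for AKR1C1 (adjusted p = 1.73e-07), and 1.77 ± 0.11 for the sum of AKR1C1 and AKR1C2. It was 1.31 ± 0.35 for AKR1B10 (adjusted p = 0.00932) and 0.35 ± 0.09 for AKR1B1 (adjusted p = 0.00737). For AKR1A1 it was -0.23 ± 0.11 (edgeR quasi-likelihood test, unadjusted p = 0.0470, adjusted p = 0.127). The 95% interval for AKR1A1, -0.48 to 0.02, rests on the 8 residual degrees of freedom alone. That interval is wider than the edgeR test implies, as the unadjusted p lies below 0.05. With limma on log2(FPKM + 1), which shrinks the change of low genes such as these in KHM-5M, the differences of AKR1B10 (-0.28, adjusted p = 0.129) and AKR1C2 (0.09, adjusted p = 0.459) were not called. In the alternatives the adjusted p lay between 0.00291 and 0.235 for AKR1B10, and between 3.40e-40 and 0.529 for AKR1C2.

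**Figure D5:**
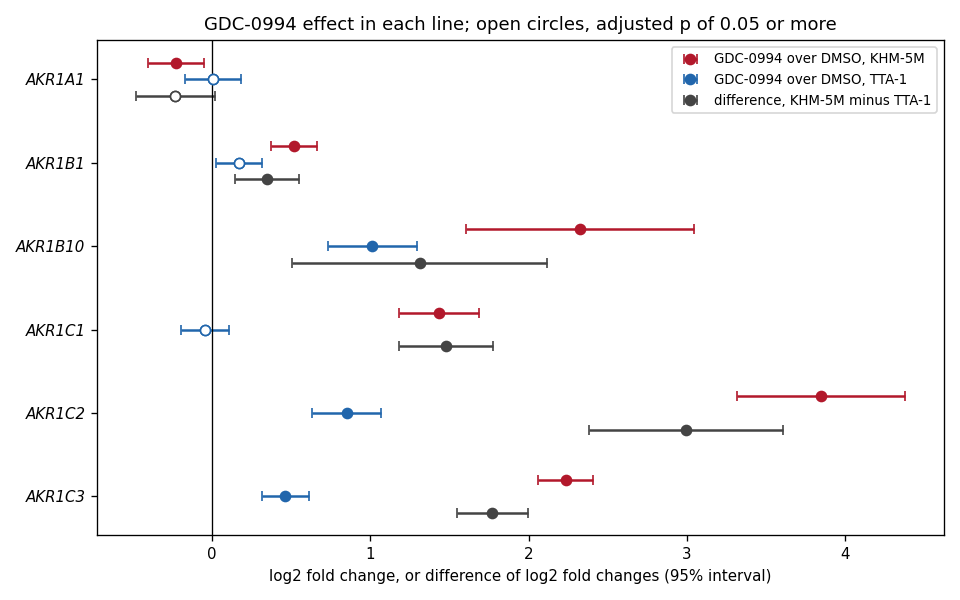
Log2 fold change of GDC-0994 over DMSO in each line, and the difference between the lines (horizontal axis), for each gene. Points are estimates from the edgeR model, and open circles were not called. Bars are 95% intervals from the SE and the residual degrees of freedom alone, and are wider than the edgeR test implies. Of the 6 genes AKR1C2 has the largest rise in KHM-5M (3.85), and the TTA-1 interval of AKR1C1 spans 0.

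Of 11 other aldo-keto reductases listed, 7 were tested. In KHM-5M 1 was called higher, AKR1B15 on 6 counts against 0, and 1 lower, with 24.6% and 25.1% of all genes. In TTA-1 none was called (0 by edgeR and 0 by DESeq2, while 3 had an unadjusted edgeR p below 0.05). Of all genes, 1.18% were called higher and 2.24% lower there. Without TTA-1 DMSO replicate 2, 2 of the list were called lower, with 1726 of 16678 genes tested lower. KCNAB2, a beta subunit of potassium channels, was at 125 ± 6.77 CPM in KHM-5M GDC-0994 and 179.5 ± 2.97 CPM in KHM-5M DMSO (-0.52 ± 0.11, adjusted p = 0.00112). AKR1B15, the neighbour of AKR1B10 that shares sequence with it, had 3, 2 and 1 counts with GDC-0994 in KHM-5M and 0 in each DMSO library, too few to describe a change there (adjusted p = 0.0181, or 0.0514 without KHM-5M GDC-0994 replicate 1). In TTA-1 it had 22, 17 and 12 counts with GDC-0994, against 8, 7 and 7 with DMSO, and was not called (adjusted p = 0.114). The list median was -0.50 in KHM-5M, also with AKR1B15 at the bound that a floor of 3 counts over the group allows, and 0.17 in TTA-1.

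NRF2 and its targets, the genes with which AKR1B10 and the AKR1C genes are usually grouped, mostly rose in KHM-5M. Of 30 tested, 21 rose and 1 fell in KHM-5M, against 24.6% of all genes higher and 25.1% lower, and the median was 0.46 against 0.02 over all genes. In TTA-1, 4 rose and 26 were not called, against 1.18% of all genes higher, with a median of 0.15 against 0.01. Without TTA-1 DMSO replicate 2 the TTA-1 count came to 10 higher and 3 lower, with 894 higher and 1726 lower of 16678 genes tested. Without TTA-1 GDC-0994 replicate 3 it came to 2 higher, with 82 higher of 16669 genes tested. The difference between the lines was higher for 14 and lower for 1, against 12.3% and 15.6% of all genes. TRIM16L was at 118 ± 10.9 CPM in KHM-5M GDC-0994 and 33.0 ± 1.12 CPM in KHM-5M DMSO (1.84 ± 0.08, adjusted p = 2.02e-11), and it rose by 0.53 ± 0.08 in TTA-1 (adjusted p = 9.06e-04). FTL, which encodes the light chain of the iron store ferritin, rose in KHM-5M (1.61 ± 0.07, adjusted p = 1.14e-11) and was not called in TTA-1 (-0.02, adjusted p = 0.940). EPHX1, an epoxide hydrolase, rose in KHM-5M (1.41 ± 0.08) and in TTA-1 (0.43 ± 0.08, adjusted p = 0.00707, or 0.0770 without TTA-1 GDC-0994 replicate 3). MAFG, a small MAF partner of NRF2, was called lower in KHM-5M (-0.21 ± 0.07, adjusted p = 0.0232), a call lost on leaving out any 1 of 9 libraries, with an adjusted p of up to 0.118.

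Of 16 prostaglandin genes tested, which act near AKR1C3 in prostaglandin metabolism, 5 rose and 2 fell in KHM-5M (median 0.34). The share that rose is near the 24.6% of all genes called higher, while 25.1% of all genes were called lower. PTGES, a prostaglandin E synthase, was at 44.98 ± 0.820 CPM in KHM-5M GDC-0994 and 8.14 ± 1.03 CPM in KHM-5M DMSO (2.47 ± 0.12, adjusted p = 2.89e-11). PTGR1, a prostaglandin reductase, rose in KHM-5M (1.30 ± 0.06, adjusted p = 3.62e-11) and in TTA-1 (0.59 ± 0.06, adjusted p = 2.68e-05). It was the 1 gene called of 16 in TTA-1, against 1.18% of all genes called higher and 2.24% called lower. The list median there was 0.05, or 0.06 with the 4 genes that had a group at 0 counts set at their bound. TBXAS1, the thromboxane synthase (-1.61 ± 0.25), and PTGES3 (-0.59 ± 0.08) fell in KHM-5M. TBXAS1 was low there, with 14, 17 and 21 counts with GDC-0994, against 53, 50 and 55 with DMSO.

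The steroid, retinoid and aldehyde lists are read against the 24.6% of all genes called higher and 25.1% called lower in KHM-5M. In TTA-1 these shares were 1.18% and 2.24%. Of 23 steroid and retinoid genes tested, 7 rose and 7 fell in KHM-5M (median 0.12), and 1 rose and 22 were not called in TTA-1 (median 0.02). The retinal reductase DHRS3 (0.66 ± 0.12) and the steroid dehydrogenase HSD17B14 (2.48 ± 0.37) rose in KHM-5M, and the retinol dehydrogenase RDH10 (-0.55 ± 0.10) and the steroid reductase SRD5A1 (-0.39 ± 0.09) fell. HSD17B14 was low there, with 67, 56 and 38 counts with GDC-0994, against 12, 9 and 7 with DMSO. HSD3B7 rose in TTA-1 (0.98 ± 0.20, adjusted p = 0.00961, or 0.0508 without TTA-1 GDC-0994 replicate 2) and fell in KHM-5M (-0.47 ± 0.14, adjusted p = 0.0106). Of 24 carbonyl and aldehyde genes tested, 5 rose and 9 fell in KHM-5M (median -0.05). In TTA-1, 1 rose and 1 fell (median -0.01), or 3 and 2 without TTA-1 DMSO replicate 2. Without that library 2 of the steroid and retinoid genes were called higher in TTA-1, with 894 higher and 1726 lower of 16678 genes tested. The aldehyde dehydrogenase genes ALDH3B1 (1.82 ± 0.09) and ALDH6A1 (0.84 ± 0.13) rose in KHM-5M, while ALDH1A3 (-1.11 ± 0.14) and SORD (-0.67 ± 0.07), which acts after AKR1B1 in the polyol pathway, fell. In TTA-1, ALDH1L2 rose (1.06 ± 0.17, adjusted p = 0.00172) and ALDH16A1 fell (-0.52 ± 0.10, adjusted p = 0.00865, or 0.0652 without TTA-1 GDC-0994 replicate 3), as it did in KHM-5M (-0.70 ± 0.10).

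The genes whose profile over the 12 libraries lay nearest to each member were taken from 10429 protein-coding genes averaging 5 CPM or more, by the root-mean-square distance between centred log2(CPM + 1) values. All libraries of a line share its large differences from the other line, so likeness mostly follows the lines. Nearest to AKR1C1 were DIO2, a deiodinase of thyroid hormone (distance 0.24), ABCC2, a drug exporter (0.47), and CES1, a carboxylesterase (0.49). DIO2 averaged 2.94 CPM in KHM-5M GDC-0994, 0.153 in KHM-5M DMSO, 431 in TTA-1 GDC-0994 and 423 in TTA-1 DMSO. It was also nearest to AKR1C2 (0.49), before ABCC2 (0.89) and FBLN2 (1.01). Nearest to AKR1C3 were P3H2 (0.24), C1S (0.25) and GLP2R (0.29), and nearest to AKR1B10 were CXADR (0.29), CYP4F11 (0.31) and NEBL (0.36). AKR1B1 had MTURN (0.11), SEL1L3 (0.12) and TFDP2 (0.12), and AKR1A1 had ANAPC5 (0.05), PLEKHB2 (0.05) and MAFG (0.06). Pearson's r with the member ranged from 0.977 to 0.998 over these pairs, as a description only.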

How the data were processed

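RNA from 12 libraries was sequenced after poly-T selection and random-hexamer priming. Per the submitters' processing notes, HISAT2 2.0.5, featureCounts 1.5.0-p3, CASAVA and GRCh38 were used. The authors deposited raw counts per gene and FPKM values. The FPKM equalled the count divided by exon length and by a divisor fitted for each library, with a largest relative error of 4.854e-07. That divisor was 0.975 to 1.076 times the total count of the library. No strand-marking step is given in the labels' protocols.

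Counts were tested with edgeR 4.0.16 (R 4.3.3): TMM scaling, filterByExpr with a minimum count of 10 and total of 15, and 1 quasi-likelihood model of the 4 group means with 8 residual degrees of freedom. P-values were adjusted by Benjamini-Hochberg over 16218 genes and called under 0.05. CPM use the TMM-scaled library size. SE is the log2 fold change over the root of F. The 95% intervals use this SE and the t quantile for the 8 residual degrees of freedom alone. They are wider than the quasi-likelihood test implies, so calls rest on the adjusted p. Alternatives used DESeq2 1.42.0, limma 3.58.1 on log2(FPKM + 1) and log2(FPKM + 0.1), other filters and scalings, summed AKR1C counts, a replicate block, and each library left out. The code was tested on simulated data.

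The members are named throughout. From each list, up to 2 called genes in each direction with the smallest p in each line are named, and 3 profile neighbours per member. The members and lists were chosen with earlier results of these data known.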

Additional observations from a re-analysis of the deposited data

Results flagged for a closer look

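The effect of GDC-0994 differed between the lines, by the test of the difference itself (KHM-5M minus TTA-1, log2 scale, edgeR), for 5 of the 6 genes. Of all genes, 27.9% were called for this difference and 12.3% were called higher. The difference was 3.0 for AKR1C2, 1.77 for AKR1C3, 1.48 for AKR1C1, 1.31 for AKR1B10 and 0.35 for AKR1B1. With limma on log2(FPKM + 1), AKR1C2 (0.09) and AKR1B10 (-0.28) were not called. All 5 genes were lower in KHM-5M DMSO than in TTA-1 DMSO, and the part of the starting level in the difference was not tested.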

How the results depend on the processing

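The count of members with a called difference between the lines was 5 and came to 3 with limma on log2(FPKM + 1), with any count or with a mean FPKM of at least 1; AKR1B10 then reversed to -0.28 (adjusted p = 0.235 and 0.129) and AKR1C2 was at 0.09 (adjusted p = 0.529 and 0.459). The pseudocount exceeds the KHM-5M DMSO level of both genes. AKR1A1 in KHM-5M reversed to 0.014 with the length and GC trend removed, an alternative chosen after seeing the data, as were upper quartile and library-total scaling. With that trend removed the median over all genes in KHM-5M also moved, to 0.10 from 0.02 in the main fit. In TTA-1 the sum of AKR1C1 and AKR1C2 was at 0.34 and that of all 3 AKR1C genes at 0.36, where AKR1C1 alone was at -0.05; these are values of the sums, and AKR1C1 itself was not measured anew. Leaving out 1 library left 5 to 6 members called in KHM-5M, and over all alternatives 3 to 4 were called in TTA-1 and 6 in each comparison of the lines. Over all genes, 556 were called in TTA-1, against 917 with the DESeq2 Wald test, 1206 without a filter, 206 with only the groups compared and 1030 with the trend removed; leaving out 1 library gave 259 to 2620, the highest without TTA-1 DMSO replicate 2 and the lowest without TTA-1 GDC-0994 replicate 3. The list counts with each library left out were added after seeing the data. With a replicate block within lines no member's call changed (3 members were called in TTA-1, 6 in KHM-5M, 5 for the difference and 6 in each comparison of lines), and 7849 genes were called in KHM-5M and 529 in TTA-1. To check pairing, deviations of log2 CPM from the group mean were correlated between GDC-0994 and DMSO libraries of a line. For libraries with the same number the correlations were 0.00798 to 0.0185 in KHM-5M and -0.0453 to 0.0537 in TTA-1. With different numbers they were -0.0294 to 0.0205 and -0.105 to 0.124, so the numbers were not taken to pair the samples. Depth limits AKR1B10 and AKR1C2 in KHM-5M DMSO, at 2 to 12 counts a library.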
